A study of Mus musculus with 2 samples.

Results

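Metallothionein 1 and 2 (Mt1, Mt2) and 5 genes of zinc handling (Mtf1, Slc30a1, Slc30a10, Slc39a4 and Slc39a14) were followed in mouse liver without the membrane-anchored matrix metalloproteinase MMP-14. These 7 genes were a named list, out of 16387 genes with a symbol on the E14 array and 16390 on the P1 array. Mt1 and Mt2 were chosen by their measured KO over wild-type ratios, which ran in opposite directions on the 2 arrays, so that contrast is described here and carries no test. The P1 array set liver of MMP-14 KO mice against liver of wild-type mice, 2 livers per genotype, called P1 in the labels and E18.5 in the design text. The E14 array set sorted Dlk+ cells of MMP-14 KO livers against sorted Dlk+ cells of wild-type livers, with 100000 cells and 3 livers per genotype. The sort gate also asked for absence of CD45, CD71 and Ter119, markers of blood cells, and the design text gives the age as E14.5. On both arrays the KO RNA carried Cy3 and the wild-type RNA Cy5. Each comparison had 1 array of pooled livers and no array had the dyes swapped, so no value has a replicate error or a test, and an effect of the dye on a gene cannot be told apart from genotype. The strain and the way the KO allele was made are not given in the sources used here. No treatment is named in the labels.

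Metallothioneins are small, cysteine-rich proteins that bind zinc and copper in the cytosol, and Mt1 and Mt2 are the liver forms, known to be abundant in fetal and newborn liver. MTF-1, the product of Mtf1, is a zinc finger transcription factor that senses free zinc and switches on Mt1, Mt2 and the exporter gene Slc30a1 through metal response elements. The Slc30 (ZnT) proteins move zinc out of the cytosol and the Slc39 (ZIP) proteins move it in. Mt1 and Mt2 are also known to respond to glucocorticoids and to inflammation in the liver.

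The promoter windows of Mt1, Mt2 and Slc30a1, the MTF-1 targets named above, are printed with their matches to the core of the metal response element. The windows are RefSeq promoters of build GRCm38.p6, from 250 bases before to 50 bases after the gene start, read 5′ to 3′ on the + strand. Capitals mark the core of the metal response element, searched as TGCACNC or TGCGCNC on both strands, so that a copy on the other strand appears as GNGTGCA or GNGCGCA.
Mt1, chr8:94178839-94179138: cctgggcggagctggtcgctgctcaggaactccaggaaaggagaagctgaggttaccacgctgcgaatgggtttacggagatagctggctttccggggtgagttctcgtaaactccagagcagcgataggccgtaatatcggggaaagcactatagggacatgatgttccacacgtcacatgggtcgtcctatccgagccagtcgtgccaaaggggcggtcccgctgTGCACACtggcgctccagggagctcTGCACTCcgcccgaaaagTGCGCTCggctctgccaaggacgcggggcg
Mt2, chr8:94172368-94172667: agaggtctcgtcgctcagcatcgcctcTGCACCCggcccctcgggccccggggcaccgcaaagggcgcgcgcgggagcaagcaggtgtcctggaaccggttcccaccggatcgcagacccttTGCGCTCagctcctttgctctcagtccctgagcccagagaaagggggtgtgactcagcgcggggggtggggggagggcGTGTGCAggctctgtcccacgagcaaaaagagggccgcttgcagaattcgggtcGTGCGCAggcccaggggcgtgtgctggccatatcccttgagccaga
Slc30a1, chr1:191906531-191906830: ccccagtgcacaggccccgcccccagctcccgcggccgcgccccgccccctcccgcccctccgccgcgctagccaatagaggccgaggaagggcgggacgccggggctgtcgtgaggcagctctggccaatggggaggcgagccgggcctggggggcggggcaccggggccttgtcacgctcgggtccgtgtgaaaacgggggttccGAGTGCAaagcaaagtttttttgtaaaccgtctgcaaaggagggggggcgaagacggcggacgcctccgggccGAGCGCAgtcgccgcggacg

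The Mt1 window held 3 copies of the core, which began at positions -23, 3 and 21 relative to the gene start. The Mt2 window held 4 copies, at -223, -128, -50 and 5. Slc30a1 held 2 copies, at -43 and 31, both on the other strand. Slc30a10 held 3 copies, at -233, -232 and -73, and the first pair overlapped. Mtf1 held 0 copies in its window. Among 32851 promoters of the same length, 25.7% held at least 1 copy, 7.11% at least 2, 1.97% at least 3 and 0.517% at least 4. A match describes the letters of a window and is not evidence of binding. Promoter windows were matched for 5 of the 7 genes, and Slc39a4 and Slc39a14 are named without one.

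The arrays were oligonucleotide arrays with 27456 spots, of which 2736 were blank. A gene was called detectable when its signal exceeded the mean plus 2 SD of the blank spots, which was 87.0 for KO and 50.5 for wild type on P1, and 85.1 for KO and 44.3 for wild type on E14. The median probe signal was 113 in KO and 73.4 in wild type on P1, and 122 in KO and 58.5 in wild type on E14, so the ratios below were taken after loess normalisation within the array. A ratio is log2 of KO over wild type. As a scale for single ratios, probes of 1 gene differed with an SD of 0.22 on P1 and 0.12 on E14 (139 genes with several probes on each array), which covers measurement within an array and not differences between mice. Mmp14 itself had signals of 104 in KO and 161 in wild type on P1 (log2 ratio -1.30), and 132 in KO and 131 in wild type on E14 (log2 ratio -1.13), lower in KO as labelled. Hepatocyte and hepatoblast markers were bright on both arrays, with a summed signal over 12 genes of 336257 in KO and 377819 in wild type on P1 and of 285338 in KO and 243737 in wild type on E14. By ratio, 7 of the 12 detectable in both channels on P1 were lower in KO by 1.5-fold or more and 2 as much higher (Tat and Tdo2), against 4.12% and 2.84% of all detectable genes. On E14, 7 of 11 were lower and 0 higher, against 0.22% and 0.307%. With each array centred on its median in place of loess, 3 were lower and 4 higher on P1, against 2.52% and 10.2% of all genes. On E14 2 were then lower and 2 higher, against 0.0394% and 24.8%. The lower ones were very bright genes, with a reading at the top of the range for all 7 on P1 and for 6 of the 7 on E14. The markers of stellate cells and fibroblasts had a median ratio of -0.27 on P1 and 0.42 on E14, and those of erythroid cells -0.57 on P1 and 0.00 on E14. On P1, 11 of 17 lung epithelium markers were detectable in KO and 17 of 17 in wild type, with summed signals of 1905 in KO and 44185 in wild type, and 10 of the 11 measured in both channels were lower in KO by 1.5-fold or more. On E14 these markers summed to 1802 in KO and 884 in wild type, with 10 of 17 detectable in each channel. The part of these marker differences in the ratios of the zinc genes was not tested. The brightest lung epithelium marker in P1 wild type, Sftpc, read 24038 there and 187 in KO. Whether the P1 wild-type material, described as liver, also held other tissue was not tested. In bulk RNA, fewer cells of a type and less RNA per cell cannot be told apart.

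Mt1 and Mt2 were among the brightest genes of every channel, and both were higher in KO than in wild type on the P1 array. Mt1 had a signal of 61428 in KO liver and 12483 in wild-type liver at P1. Its signal was 4.92 times as high in KO as in wild type, and 2.82-fold higher after normalisation (log2 ratio 1.498). Mt2 had a signal of 30647 in KO liver and 6342 in wild-type liver at P1. The signal ratio was 4.83 and the normalised ratio 2.85-fold (log2 ratio 1.51). The genes were thus nearly equal in their ratio, though no level can be compared between their probes. In the authors' deposited table the P1 log2 ratios were 1.87 for Mt1 and 1.84 for Mt2. They ranked 16th and 15th among the 12715 named genes detectable in both P1 channels, when genes were ordered from the highest ratio down. At P1, 2.84% of detectable genes reached 1.5-fold higher in KO and 0.558% reached 2-fold, and both genes passed both limits by the way they were chosen.

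On the E14 array the same probes were lower in KO Dlk+ cells. Mt1 had a signal of 37669 in KO cells and 40017 in wild-type cells. The signals were close, with a KO over wild-type quotient of 0.941, and after normalisation Mt1 was 2.61-fold lower in KO (log2 ratio -1.38). Mt2 had a signal of 28002 in KO cells and 45868 in wild-type cells. The quotient was 0.610 and Mt2 was 4.03-fold lower in KO after normalisation (log2 ratio -2.01). The size of these ratios rests on the normalisation, since the median detectable probe of this array read 2.17 times as high in KO as in wild type, against 1.57 times on P1. In the authors' deposited table the E14 log2 ratios were -1.44 for Mt1 and -2.06 for Mt2. Mt2 had the lowest ratio and Mt1 the third lowest of the 12705 named genes detectable in both E14 channels. On E14, 0.22% of detectable genes reached 1.5-fold lower in KO and 0.0945% reached 2-fold.

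**Figure D1:**
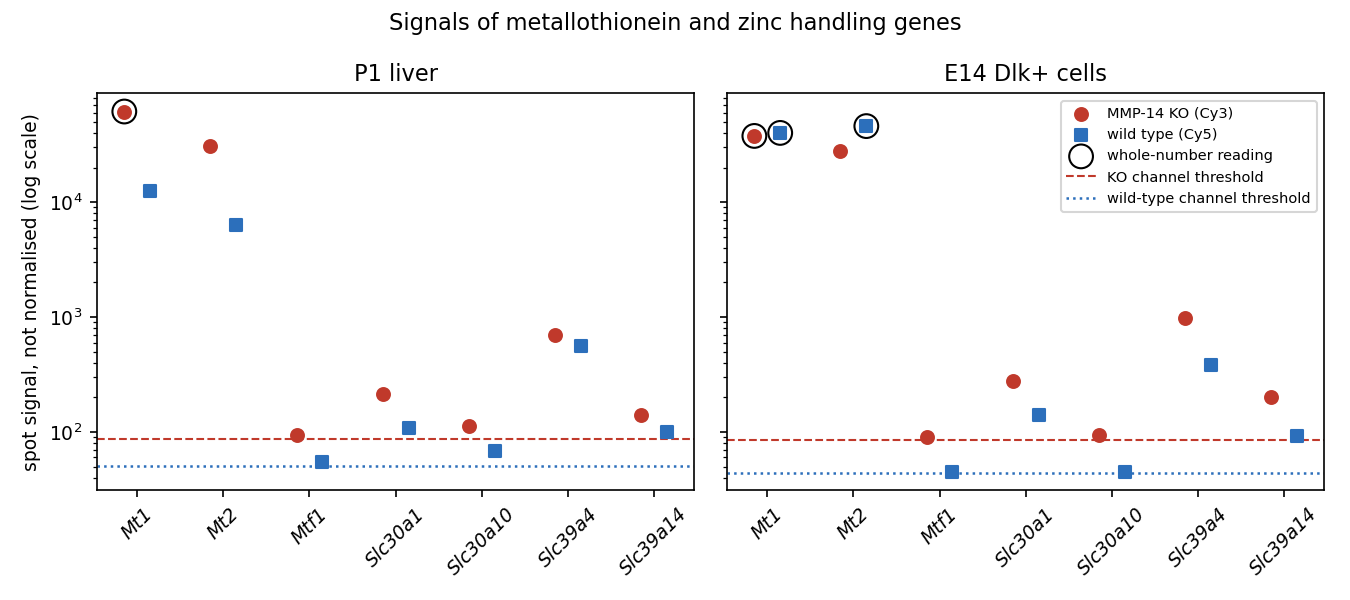
Unnormalised spot signal (log scale) of the 7 genes in the KO and wild-type channels of the P1 and E14 arrays, with the detectability limit from blank spots in each channel. Mt1 and Mt2 lie between 6342 and 61428, far above the limits of 44.3 to 87.0, while Mtf1 and Slc30a10 lie just above them.

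Several of the 8 metallothionein readings lay near the top of the scanner's range. The deposited signals join 3 scanner gains, and in each channel the spots at the very top are whole numbers while dimmer ones carry decimals, with little overlap. Mt1 had a whole-number reading in KO on P1 and in both KO and wild type on E14, and Mt2 had one in wild type on E14. The Mt2 readings of both P1 channels and of the E14 KO channel, and the Mt1 reading of P1 wild type, carried decimals. Whole-number readings began at 33958 in KO and 37242 in wild type on P1, and at 32697 in KO and 28390 in wild type on E14. These starts lay near the value at which the middle gain reaches its maximum on the common scale, 36519 in KO and 35077 in wild type on P1 and 36057 in KO and 31147 in wild type on E14. None of the metallothionein readings was at the 16-bit maximum of 65535, which 0 spots reached in KO and 3 spots in wild type on P1, and 0 spots in either channel on E14. The 4.03-fold difference of Mt2 on E14 therefore sets a decimal reading in KO against a whole-number reading in wild type, and the 2.82-fold difference of Mt1 on P1 the reverse. Mt2 on P1 is the 1 pair of readings in which both channels carried decimals. Whether the joining of the gains moved the ratios was not tested.

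Genes as bright as the metallothioneins gave lower ratios as a group on E14 in the reported setting. Of 16 named genes with a whole-number reading on that array, the 14 others all had ratios below 0, between -1.39 and -0.13 with a median of -1.05, and 8 were at least 2-fold lower in KO. The E14 ratio of Mt1 was beside those of transferrin (Trf, -1.39), transthyretin (Ttr, -1.36) and albumin (Alb, -1.31), abundant secreted liver proteins. Mt2, at -2.01, lay below all of these genes. Among the 162 other genes in the brightest 1% of E14, 1 had a lower ratio than Mt1 and 0 a lower ratio than Mt2, with a median of -0.18. In the authors' deposited table the 14 whole-number genes ran from -1.45 (Trf) to -0.18 (H2ac4). With median centring they ran from -0.63 (Trf) to 0.47 (Rps18), against an all-gene median of 0.28. H19, Apoe and H2ac4 were then also above 0, so the size and sign of this pattern depend on the scaling.

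At P1 bright genes also tended to be lower in KO in the reported setting. Mt1 and Mt2, which were chosen for their ratios, stood on the other side. The 18 other genes with a whole-number reading had a median ratio of -0.88, 13 of them were below 0, and they spanned -1.65 (Ttr) to 0.84 (Ctsl, the lysosomal protease cathepsin L). In the brightest 1% of P1, 1 of 162 other genes had a ratio above those of Mt1 and Mt2, namely Tat (tyrosine aminotransferase) at 1.73, and the median was -0.13. The tendency depends on the scaling. In the authors' deposited table the 18 genes ran from -1.28 (Ttr) to 1.21 (Ctsl). With median centring they ran from -0.996 (Ttr) to 1.49 (Ctsl). Rbp4, Cyp4a14, Apoh, Afp, Atp5g3, Apoc2, Igfbp1 and Ctsl were then above 0.

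**Figure D2:**
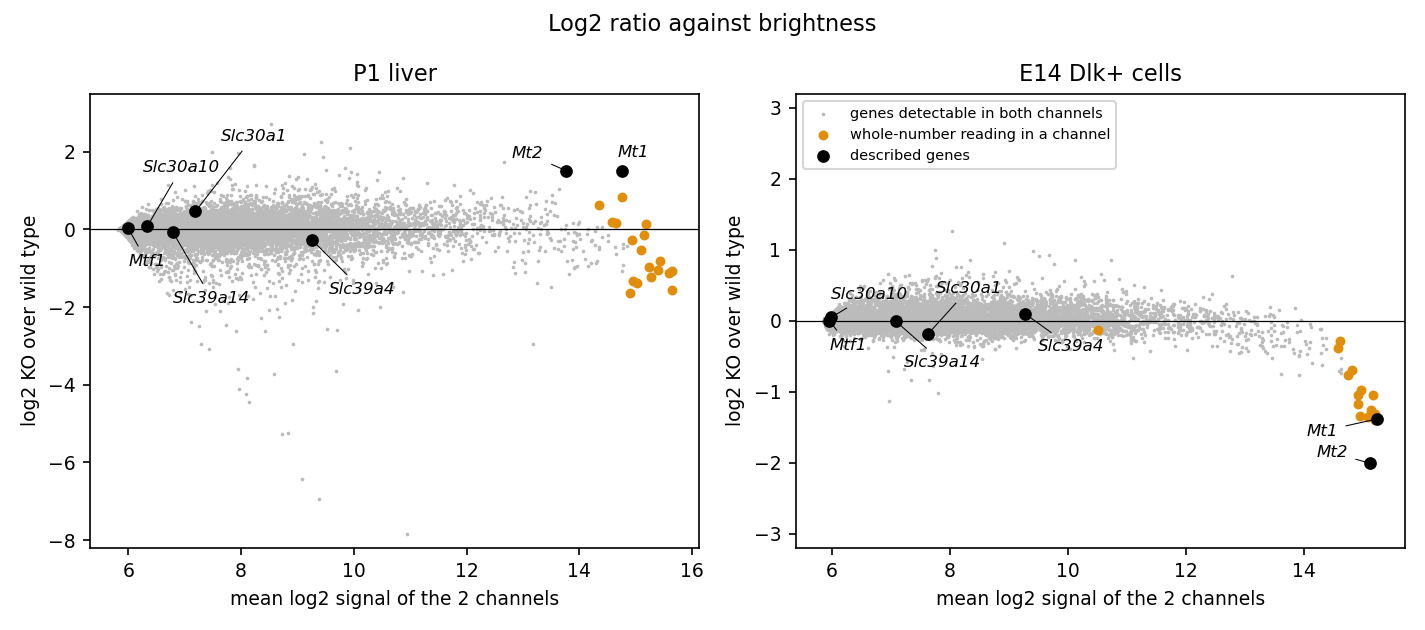
Normalised log2 ratio of KO over wild type against the mean log2 signal of the 2 channels for the genes detectable in both, on the P1 and E14 arrays. Orange points are genes with a whole-number reading in a channel, and black points are the 7 genes. On P1 Mt1 (1.498) and Mt2 (1.51) lie above all orange points, and on E14 Mt1 (-1.38) lies with the lowest orange points and Mt2 (-2.01) below them.

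The local background beside the metallothionein spots was high, and it differed between the 2 probes. Around the Mt1 spot it was 57.8% of the spot signal in KO and 71.4% in wild type on P1, and 55.6% in KO and 65.0% in wild type on E14. Around the Mt2 spot it was 46.5% in KO and 15.5% in wild type on P1, and 35.8% in KO and 9.77% in wild type on E14. For the other whole-number genes the median was 44.3% in KO and 28.2% in wild type on P1, and 43.0% in KO and 26.3% in wild type on E14. With the local background subtracted from each spot, the P1 log2 ratio was 2.41 for Mt1 and 1.17 for Mt2, and the E14 log2 ratio of Mt1 was -0.58. Without any scaling between channels the E14 log2 ratios were -0.089 for Mt1 and -0.71 for Mt2, and the median of all genes then stood at 0.82. With each array centred on its median the E14 ratios were -0.62 for Mt1 and -1.25 for Mt2, against an all-gene median of 0.28. The sign of both genes on both arrays was kept under each alternative that gave a value, of which 8 changed the value (9 for Mt2 on P1) and 3 left it as it was because they act on dim or repeated probes. The alternative without whole-number readings gave a value for Mt2 on P1 (1.49). It gave none for Mt2 on E14 or for Mt1 on either array. The values ran from 1.498 to 2.41 for Mt1 and 1.05 to 2.27 for Mt2 on P1, and from -1.44 to -0.089 for Mt1 and -2.35 to -0.71 for Mt2 on E14.

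**Figure D3:**
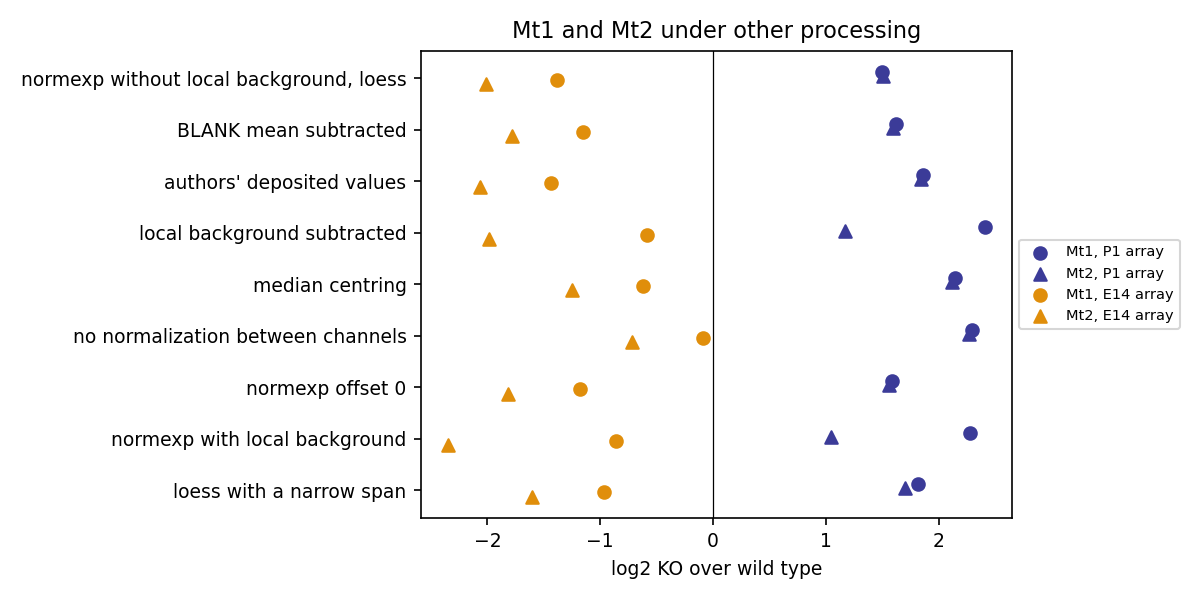
Log2 ratio of KO over wild type of Mt1 (circles) and Mt2 (triangles) on the P1 and E14 arrays under the reported setting and the alternative ways of background treatment and scaling that change the values. Every P1 point is above 0 and every E14 point below 0, with Mt1 on E14 at -0.089 when the channels are not scaled.

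Set side by side, the wild-type channels of the 2 arrays differed more than the KO channels. The Mt1 signal on P1 was 1.63 times that on E14 in the KO channels and 0.312 times in the wild-type channels. For Mt2 these quotients were 1.09 in the KO channels and 0.138 in the wild-type channels, so its wild-type signal was 7.23 times as high on E14 as on P1. The arrays were scanned and scaled separately and hold different material, sorted cells and whole liver, so these quotients are descriptions of the signals and not of RNA levels. The log2 ratio differed between P1 and E14 by 2.88 for Mt1 and 3.52 for Mt2, and by 3.30 and 3.91 in the authors' deposited table. Among 12005 genes detectable in both channels of both arrays, Mt1 and Mt2 were the 2 that reached 1.5-fold higher in KO on P1 together with 1.5-fold lower in KO on E14, which is the property they were chosen for. With median centring they were again the 2 such genes. There were 11 in the authors' deposited table, the 9 others being Kdm5d, Kcnab1, Muc16, Zfp113, Asic3, Enpp7, Hook1, Osgep and Ppm1h. All of these except Zfp113 had signals close to the blank spots. Each gene has 1 probe on the array. The probe sequences were not used here, and whether each probe also reads the transcript of the other gene was not tested.

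Mtf1, the zinc sensor, was close to the limit of detection, and its ratios were near 0 in the reported setting. Its signal was 93.2 in KO and 54.6 in wild type on P1 (log2 ratio 0.03), and 90.4 in KO and 44.9 in wild type on E14 (log2 ratio 0.00). In wild type on E14 it did not pass the stricter limit of the mean plus 3 SD of the blank spots. In the authors' deposited table its log2 ratio was 0.25 on P1 and 0.55 on E14, and with local background subtracted it was 1.2 on E14. At this signal, a moderate difference in Mtf1 mRNA was not detectable.

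Of the exporters, Slc30a1, the plasma membrane zinc exporter ZnT1 and a known MTF-1 target, was the one of the 5 genes beside the metallothioneins whose ratios had the same signs as theirs. Its signal was 212 in KO and 109 in wild type on P1, which was 1.38-fold higher in KO after normalisation (log2 ratio 0.46). On E14 its signal was 278 in KO and 140 in wild type (log2 ratio -0.19). Both ratios exceeded the SD between probes of a gene (0.22 on P1, 0.12 on E14), and neither passed 1.5-fold. The unnormalised KO over wild-type quotient was 1.96 on P1 and 1.99 on E14, so the signs differed only after scaling. It ranked 684th from the top on P1 and 372nd from the bottom on E14. In the authors' deposited table its log2 ratios were 0.67 on P1 and -0.34 on E14. On E14 its ratio was -0.03 under normexp with local background. Its E14 sign turned with median centring, to 0.23, and without scaling between channels, to 0.76. On P1 its ratio lay between 0.34 and 0.75 under the alternatives run.

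Slc30a10, an exporter known for manganese efflux, was dim in both comparisons. Its signal was 114 in KO and 68.6 in wild type on P1 (log2 ratio 0.09), and 93.3 in KO and 44.8 in wild type on E14 (log2 ratio 0.05). In wild type on E14 it did not pass the limit of 3 SD. In the authors' deposited table the ratios were 0.16 on P1 and 0.95 on E14, and the larger value belongs to a signal near the blank spots.

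The importers Slc39a4 and Slc39a14 had ratios between -0.27 and 0.10. Slc39a4 (ZIP4), the importer best known from zinc uptake in the intestine, had a signal of 691 in KO and 556 in wild type on P1 (log2 ratio -0.27), and 988 in KO and 385 in wild type on E14 (log2 ratio 0.10). Its P1 sign turned with median centring, to 0.09, and without scaling between channels, to 0.24. Its E14 ratios in the same order were 0.76 and 1.29, both past 1.5-fold. Over all 12705 E14 genes, 3149 and 8435 were then as much higher. Slc39a14 (ZIP14), a liver importer of zinc, iron and manganese known to be induced in inflammation, had a signal of 141 in KO and 100 in wild type on P1 (log2 ratio -0.07), and 200 in KO and 91.8 in wild type on E14 (log2 ratio -0.01). In the authors' deposited table its ratios were -0.27 on P1 and -0.08 on E14. On E14 its sign turned with median centring, to 0.27, and without scaling, to 0.80. Neither gene reached 1.5-fold in the reported setting. With median centring the E14 ratios of Mtf1 and Slc30a10 turned as well, to -0.23 and -0.17, and with local background subtracted the P1 ratio of Slc30a10 was -0.50.

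The wider zinc handling list held 29 names, the metallothioneins, Mtf1 and the Slc30 and Slc39 families, of which 28 were on the array. At P1, 24 were detectable in both channels, 2 were higher in KO by 1.5-fold or more (Mt1 and Mt2) and 1 was as much lower, with a median ratio of -0.03 against 0.00 for all genes. Over all detectable P1 genes, 2.84% were as much higher and 4.12% as much lower, with 1.45% lower by 2-fold or more. On E14, 25 were detectable in both channels, 0 were higher in KO by 1.5-fold or more and 2 were as much lower (Mt1 and Mt2), with a median of 0.02 against 0.01 for all genes. Over all detectable E14 genes, 0.307% were as much higher and 0.22% as much lower, and 0.0157% were at least 2-fold higher.

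Outside the 7 genes, the gene lower in KO at P1 by 1.5-fold or more was Slc39a8 (ZIP8), an importer of zinc and manganese. In the authors' deposited table, Slc39a10 (-1.10, against -0.44 in the reported setting) and Slc39a1 (-0.79, against -0.22) also passed that limit. Slc39a8 had a signal of 321 in KO and 415 in wild type at P1, a log2 ratio of -0.93 (-1.06 in the authors' deposited table). Lung epithelium markers were lower in the same channel, with summed signals of 1905 in KO and 44185 in wild type, and their part in the Slc39a8 ratio was not tested. The 17 other zinc genes detectable on P1, Slc39a8 included, ran from -0.93 to 0.30 (Slc30a4). On E14 the 18 detectable ones ran from -0.25 (Slc39a5) to 0.18 (Slc30a4), and 0 passed 1.5-fold in either direction. By family, the median ratio of 8 exporters was 0.10 on P1 and 0.04 on E14, and that of 12 importers -0.15 on P1 and 0.05 on E14. The remaining metallothioneins, which are known from brain (Mt3) and stratified epithelia (Mt4), were dim. Mt3 had a signal of 99.1 in KO and 60.1 in wild type on P1, with a log2 ratio of 0.02 on both arrays. Mt4 was not detectable on P1, with 82.3 in KO and 46.8 in wild type, so it has no P1 ratio, and its log2 ratio on E14 was -0.12.

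A list of 9 genes of zinc sensing and MTF-1 targets, all detectable on both arrays, had 3 genes at least 1.5-fold higher in KO at P1 and 1 lower, with a median of 0.46, against 2.84% and 4.12% of all genes. Mt1 and Mt2 are among the 3 and were chosen for their ratios, so the count is not independent of that choice. The third was Gclc (1.14), the catalytic subunit for glutathione synthesis. The lower one was Csrp1, a LIM protein of muscle and stroma, with a signal of 267 in KO and 504 in wild type (log2 ratio -1.50). On E14 Mt1 and Mt2 were the 2 lower genes, against 0.22% of all genes, 0 were higher and the median was -0.06.

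Genes that respond to glucocorticoids, oxidative stress and inflammation, signals known to act on metallothionein genes, were read on the same arrays. These lists were chosen with earlier results of these data known, so their counts are not independent of those results. A link between these genes and the ratios of Mt1 and Mt2 was not tested. Gclc is also in the list of MTF-1 targets above. Of 9 glucocorticoid-responsive genes detectable at P1, 4 were at least 1.5-fold higher in KO and 1 lower, with a median of 0.51, against 2.84% and 4.12% of all detectable genes. The largest ratios were those of Tdo2 (1.86) and Tat (1.73), enzymes of tryptophan and tyrosine breakdown, Dusp1 (-0.93), a phosphatase of MAP kinases, and Pck1 (0.89), the gluconeogenic carboxykinase. On E14, 0 of 9 passed 1.5-fold in either direction, with a median of 0.03. Of 7 genes of the NRF2 oxidative stress response at P1, 4 were higher in KO and 0 lower, with a median of 0.96, beside the same shares of 2.84% and 4.12% of all genes. These were Srxn1 (1.17), Gclc (1.14), Txnrd1 (0.99) and Nqo1 (0.96), enzymes of thiol and quinone reduction. On E14, 0 of 8 passed 1.5-fold. With median centring 4 were higher, where 24.8% of all E14 genes were as much higher. Of 18 acute phase genes at P1, 1 was higher in KO and 6 were lower, with a median of -0.12, against 2.84% and 4.12% of all genes. The lower ones included the fibrinogen chains Fgb (-1.38) and Fgg (-1.33), the heme carrier Hpx (-0.96) and haptoglobin (Hp, -0.95). The balance of this list turned with the scaling, to 3 higher and 2 lower with median centring, against 10.2% and 2.52% of all genes. It was 3 higher and 4 lower in the authors' deposited table, against 11.9% and 12.2% of all genes. On E14, 0 of 17 passed 1.5-fold. With median centring 7 were higher, again beside 24.8% of all E14 genes.

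Genes of other metals were counted in the same way. Of 8 copper genes, 1 was at least 1.5-fold higher in KO at P1, ceruloplasmin (Cp, 0.86), and 0 were lower, against 2.84% and 4.12% of all genes. On E14 0 passed 1.5-fold, though 4 were higher with median centring, where 24.8% of all genes were as much higher. Of 15 iron and manganese genes, 2 were higher in KO at P1, the hepcidins Hamp2 (0.76) and Hamp (0.63), and 2 were lower, Trf (-1.08) and Slc39a8 (-0.93), against 2.84% and 4.12% of all genes. On E14, 0 were higher and 2 were lower, Trf (-1.39) and the ferritin light chain Ftl1 (-0.76), against 0.22% of all genes that were as much lower. Both are bright, and with median centring Trf was at -0.63 and Ftl1 at -0.01.

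Mt4, Mt3, Mt2 and Mt1 lie next to each other on chromosome 8 in the RefSeq annotation, between Bbs2 and Nup93. Bbs2, a subunit of the ciliary BBSome, had a ratio of -0.10 on P1 and -0.01 on E14. Nup93, a nuclear pore protein, had 0.12 on P1 and 0.01 on E14. Farther out, Nudt21, a subunit of the pre-mRNA cleavage machinery, had 0.46 on P1 and 0.17 on E14. Nlrc5, an activator of MHC class I genes, had 0.19 on P1 and -0.42 on E14, the signs of Mt1 and Mt2. None of these 4 neighbours passed 1.5-fold in the reported setting. In the authors' deposited table Nudt21 was at 0.65 on P1 and Nlrc5 at -0.68 on E14, both past 1.5-fold. Herpud1, also farther out, had 0.08 on P1 and -0.21 on E14. Ogfod1, a dim gene, had 0.13 on P1 and 0.01 on E14, and 0.91 on P1 in the authors' deposited table.

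Each gene was also placed by its 2 ratios, 1 per array, and the distance between Mt1 and Mt2 was 0.62 log2 units. In the reported setting no other gene lay as near to either, but with the authors' deposited table Kdm5d lay nearer to Mt1 (0.370), at dim signals of 56.5 to 115. With median centring Tat (0.474), Upp2 (0.518) and Cbr3 (0.533) lay nearer to Mt1 than Mt2 did. The gene nearest to Mt2 after Mt1 was Serpina6, the corticosteroid-binding globulin of plasma, at 1.45, with a ratio of 0.32 on P1 and -1.18 on E14. Then came the zinc finger gene Zfp113 at 1.52, with 1.2 on P1 and -0.52 on E14, and alpha-fetoprotein (Afp) at 1.56, with 0.14 on P1 and -1.26 on E14. Cyp51, the sterol demethylase, and Bex2 were at 1.77 and 1.81. Nearest to Mt1 were Zfp113 (0.916), Cyp51 (1.15), Bex2 (1.19), Serpina6 (1.19) and Depp1 (1.22), which had 1.31 on P1 and -0.18 on E14. These neighbours depend on the scaling, since 1 of the 5 for Mt1 and 2 of the 5 for Mt2 were found again with the authors' deposited table, and 0 for either gene with median centring.

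**Figure D4:**
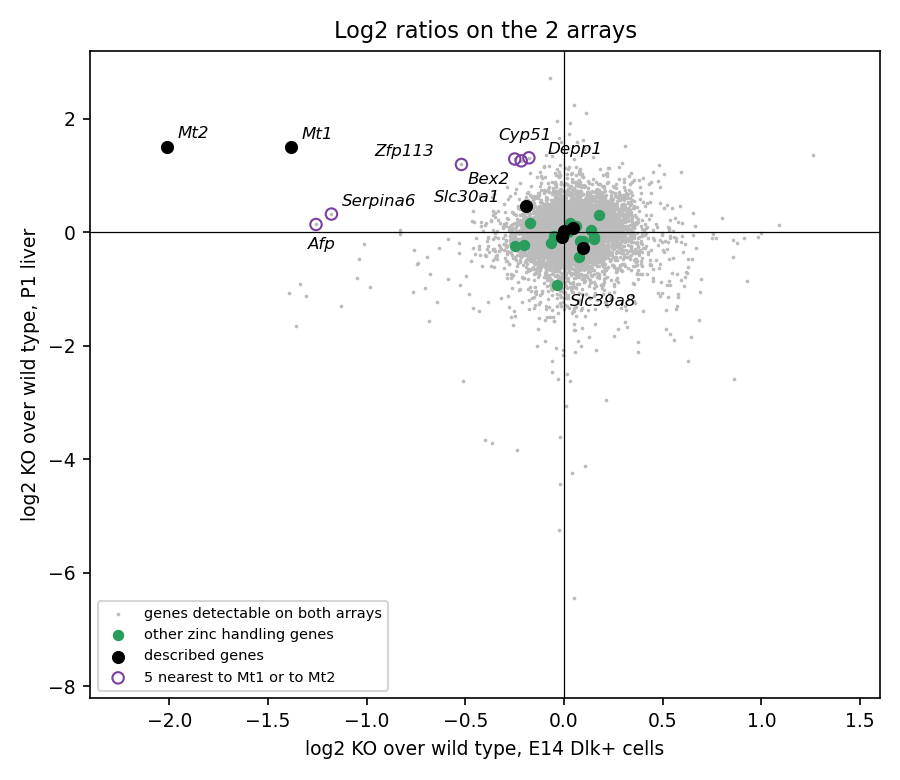
Log2 ratio of KO over wild type on the P1 array (vertical) against the E14 array (horizontal) for genes detectable on both, with the 7 genes in black, the other zinc handling genes in green and the 5 genes nearest to Mt1 or to Mt2 ringed. Mt1 and Mt2 lie alone at the upper left, and Slc30a1 (0.46 on P1, -0.19 on E14) is the one other black point set off in that direction.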

How the data were processed

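Two-colour oligonucleotide arrays measured KO (Cy3, 532 nm) and wild-type (Cy5, 635 nm) RNA, after amplification and amino allyl coupling, per the labels' protocols. Per the file headers, the intensities in the deposited scanner output join 3 gains, are not normalised, and come with local background and flags for each spot. The authors' deposited table holds log2 ratios of KO over wild type, whose normalisation the sources used here do not name. From the intensities, limma 3.58.1 in R 4.3.3 applied normexp with an offset of 50 and no local background, then loess (span 0.3, control spots at weight 0), and spots and then probes of a gene were averaged. A gene was detectable above the mean plus 2 SD of blank spots, after trimming 5% at each end. Of 23473 gene probes, 16631 had a symbol, of which 3947 were updated through RefSeq and 62 kept as given. The number of arrays, 1 per comparison, limits the precision. Named genes were all 7 genes, zinc genes past 1.5-fold, up to 4 genes of largest ratio in each other list and the 5 nearest to Mt1 and to Mt2. The genes and lists were chosen with earlier results of these data known. Other backgrounds, scalings, filters and the authors' values were tried.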

Additional observations from a re-analysis of the deposited data

Results flagged for a closer look

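The log2 ratio of KO over wild type of Mt1 was 1.498 on P1 and -1.38 on E14, a difference of 2.88. That of Mt2 was 1.51 on P1 and -2.01 on E14, a difference of 3.52. Both stand out because the single array of each age moved in the opposite direction from the other. With 1 array at each age the difference was not tested, and the genes had been chosen for it. Age, sorted cells against whole liver, and the array cannot be told apart.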

How the results depend on the processing

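Mt1 and Mt2 kept their sign under every alternative that gave a value. Of these, 3 (brightest probe, the limit of 3 SD, no filter) could not move them. With whole-number readings left out, Mt2 on P1 was at 1.49. Mt2 on E14 and Mt1 on both arrays had no value there, so their signs could not be checked in that way. On E14, where the reported log2 ratios were -1.38 for Mt1 and -2.01 for Mt2, subtraction of the blank mean gave -1.15 and -1.79, median centring -0.62 and -1.25, no scaling between channels -0.089 and -0.71, a normexp offset of 0 gave -1.18 and -1.81, normexp with local background -0.86 and -2.35, and a loess span of 0.05, chosen after seeing the data, -0.96 and -1.60. Subtraction of the local background gave -0.58 for Mt1. On P1, where the reported ratios were 1.498 and 1.51, the authors' deposited table gave 1.87 and 1.84, subtraction of the local background 2.41 and 1.17, median centring 2.15 and 2.12, no scaling 2.30 and 2.27, normexp with local background 2.28 and 1.05, and the narrow span 1.82 for Mt1. The count of zinc genes at least 1.5-fold higher in KO on E14 was 0, against 1 with the authors' deposited table, 3 with local background subtracted, 4 with median centring and 17 without scaling. Over all genes this count was 39 of 12705, against 684, 1780 (of 12560), 3149 and 8435 in the same order. The count of lower zinc genes on E14 was 2, against 1 with local background subtracted, 1 without scaling and 0 with whole-number readings left out. Over all genes it was 28, against 972, 1 and 15. On P1 the higher count was 2, against 4 with the blank mean subtracted, 6 with local background subtracted, 4 with offset 0 and 1 without whole-number readings. Over all P1 genes it was 361 of 12715, against 1265, 2329 (of 12634), 870 and 355 (of 12696). The lower count on P1 was 1, against 3 with the blank mean subtracted, 3 with the authors' deposited table, 3 with local background subtracted, 0 without scaling, 2 with offset 0 and 0 at a limit of 2-fold. Over all P1 genes it was 524, against 1568, 1554, 1868, 206, 1192 and 185 in the same order. Of the 5 genes nearest to each, 1 (Mt1) and 2 (Mt2) were found again with the authors' deposited table and 0 with median centring. Counts of the other lists and of genes opposite on the 2 arrays were repeated with the authors' deposited table and with median centring, which was chosen after seeing the data. The cause of these moves was not tested, apart from the readings left out by construction. Counts over all genes also moved: at least 2-fold, 71 genes were higher and 185 lower in KO on P1, against 403 and 640 in the authors' deposited table, and 2 higher and 12 lower on E14, against 160 and 34. Signals near the blank spots limit Mtf1 and Slc30a10. No paired analysis was possible because each comparison is a single array.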
